A study of Mus musculus with 12 samples.

Results

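Calcium-triggered vesicle fusion rests on a small set of gene families, and 48 of the 24421 genes in the count table belong to them by symbol. They are 17 synaptotagmins (Syt), 15 syntaxins (Stx), 7 vesicle-associated membrane proteins (Vamp), 4 complexins (Cplx) and 5 genes named Snap (Snap23, Snap25, Snap29, Snap47 and Snap91). Of the 48, 43 had at least 10 counts in 6 or more libraries and could be tested, and all 43 had at least 10 counts in all 12. Striatum was dissected from both hemispheres of male mice of strain C57BL/6J, which takes ethanol willingly. One group of 6 was injected with saline and the other group of 6 with varenicline at 2 mg/kg, a smoking cessation drug that is a partial agonist of nicotinic acetylcholine receptors. Every mouse drank 20% ethanol in a limited-access test called Drinking-in-the-Dark, in sessions of 2 h that began 3 h into the dark phase. In the first of 3 cycles of 2 days all mice received saline, and in the other 2 cycles the assigned injection came 30 min before the session of day 2. Assignment followed the first cycle and balanced the mean ethanol intake of the groups. Tissue was taken after the last session, and no group without ethanol was analysed here. No source used here gives the age of the mice or says whether a library stands for a single mouse. P-values therefore set group differences only against the spread within the groups of these 12 samples, a spread that may be partly technical. Libraries are numbered within a group in deposition order, and numbers do not pair them.

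SNARE proteins pull a vesicle and its target membrane together. In neurons the vesicle SNARE is synaptobrevin, encoded by Vamp2 or Vamp1, and the plasma membrane SNAREs are a syntaxin, such as Stx1a, and Snap25. Complexins bind the assembled SNARE bundle, and synaptotagmins with calcium-binding C2 domains trigger fusion when calcium enters the terminal. Striatal tissue holds the cell bodies of GABAergic projection neurons, which express this machinery, while the axon terminals of cortical and thalamic neurons keep most of their transcripts in cell bodies outside the striatum.

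Totals per library spanned 14040416 to 27917715 counts in the saline group and 13340420 to 24522349 counts in the varenicline group, with no difference of means past the spread (exact permutation p = 0.190). Of the 43 tested members the lowest single count was 12, in Syt15, and the largest total was 469798, in Cplx2. The striatal label was checked with 14 markers of projection neurons, all of which were detected, with a summed level of 8074 to 12617 CPM (counts scaled to the library total) per saline library and 8713 to 13996 CPM per varenicline library. Exons of 8 tested members overlap a gene on the opposite strand in GENCODE vM21, over 1.748% to 28.99% of their length. Among them are Syt4, Syt6, Syt7, Syt12, Syt16, Snap29 and Stx18, and the use of strand in counting is not given, so their values could include reads of the other gene.

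The start regions of 3 members are shown because Stx1a and Cplx3 had the largest negative log2 fold changes of the families and Cplx1 is the complexin with an unadjusted p under 0.05 that is expressed at high level. They run from 250 bases before to 50 bases after the start, are taken from RefSeq on GRCm38.p6, and are written 5′ to 3′ on the gene's strand. Capitals mark GGGCGG or its reverse complement CCGCCC, the GC box bound by Sp1-type factors.
Stx1a, chr5:135023232-135023531, plus strand: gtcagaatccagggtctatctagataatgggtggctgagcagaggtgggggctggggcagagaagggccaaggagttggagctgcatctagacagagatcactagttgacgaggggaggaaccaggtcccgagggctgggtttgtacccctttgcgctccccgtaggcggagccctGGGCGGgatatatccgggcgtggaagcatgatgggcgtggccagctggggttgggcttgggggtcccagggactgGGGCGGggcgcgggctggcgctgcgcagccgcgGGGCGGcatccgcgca
Cplx3, chr9:57606232-57606531, minus strand: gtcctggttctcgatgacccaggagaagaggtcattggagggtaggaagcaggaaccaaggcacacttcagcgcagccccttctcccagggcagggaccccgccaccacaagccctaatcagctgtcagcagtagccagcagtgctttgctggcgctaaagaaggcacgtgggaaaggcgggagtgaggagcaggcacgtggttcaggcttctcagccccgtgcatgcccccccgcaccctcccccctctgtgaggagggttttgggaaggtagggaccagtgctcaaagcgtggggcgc
Cplx1, chr5:108549978-108550277, minus strand: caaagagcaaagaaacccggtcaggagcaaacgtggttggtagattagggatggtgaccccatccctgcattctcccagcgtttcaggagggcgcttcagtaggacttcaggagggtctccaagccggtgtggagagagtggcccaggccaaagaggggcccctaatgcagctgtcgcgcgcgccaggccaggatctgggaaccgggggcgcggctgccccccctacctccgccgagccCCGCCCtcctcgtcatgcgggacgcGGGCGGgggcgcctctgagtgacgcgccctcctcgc
Stx1a held 3 such matches, Cplx1 held 2 and Cplx3 held 0. The search covered both strands for GGGCGG, for TATAAA, the TATA box, and for TGACGTCA, the cyclic AMP response element, which do not overlap one another in letters. RefSeq start regions were matched by symbol for 33 of the 43 tested members, 42 regions in all. Of these, 30 held GGGCGG, 2 held TATAAA and 0 held TGACGTCA. Among all 32851 regions of the same length the shares were 35.7%, 13.6% and 1.79%. These numbers were not adjusted for base composition, and GGGCGG holds only G and C. The content of G and C was 66.3% in the Stx1a region, 62.7% in Cplx3 and 67.0% in Cplx1. Its median over all regions was 52.7%. The start used for Cplx3 and Cplx1 is that of the count table, and for Stx1a it lies 90 bases away. A match is a description of letters and not a measured site.

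None of the 43 members passed the adjusted threshold of 0.05 in edgeR, a test on counts, and 0 of the 15111 genes tested did (0%). The smallest adjusted p among members was 0.132, for Snap47 and Syt1. At an unadjusted p under 0.05, 15 of the 43 members (34.9%) were lower with varenicline, where 9.64% of all tested genes were. On the higher side 3 members (6.98%) reached it, where 7.27% of all genes did. DESeq2 called 7 members at its adjusted p of 0.05, all lower (Snap47, Syt1, Syt16, Syt7, Snap25, Syt5 and Vamp2), among 41 with an adjusted p. It called 3.33% of the genes to which it gave one, 2.14% in the lower direction. Limma-voom with sample weights called 16 members, where it called 13.9% of all genes. Of these, 14 were lower and 2, Syt15 and Syt6, were higher (adjusted p = 0.0488 and 0.0231), where 9.07% and 4.84% of all genes were. The log2 fold change, varenicline minus saline, was below 0 for 28 of 43 members (65.1%) and for 47.7% of all genes. Its median was -0.044 over the members and 0.0074 over all genes. In bulk tissue, fewer cells of a type and less RNA per cell cannot be told apart. In none of the 43 were the 6 varenicline libraries wholly apart from the 6 saline libraries, which was so for 0.324% of all genes in the lower and 0.43% in the higher direction.

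**Figure D1:**
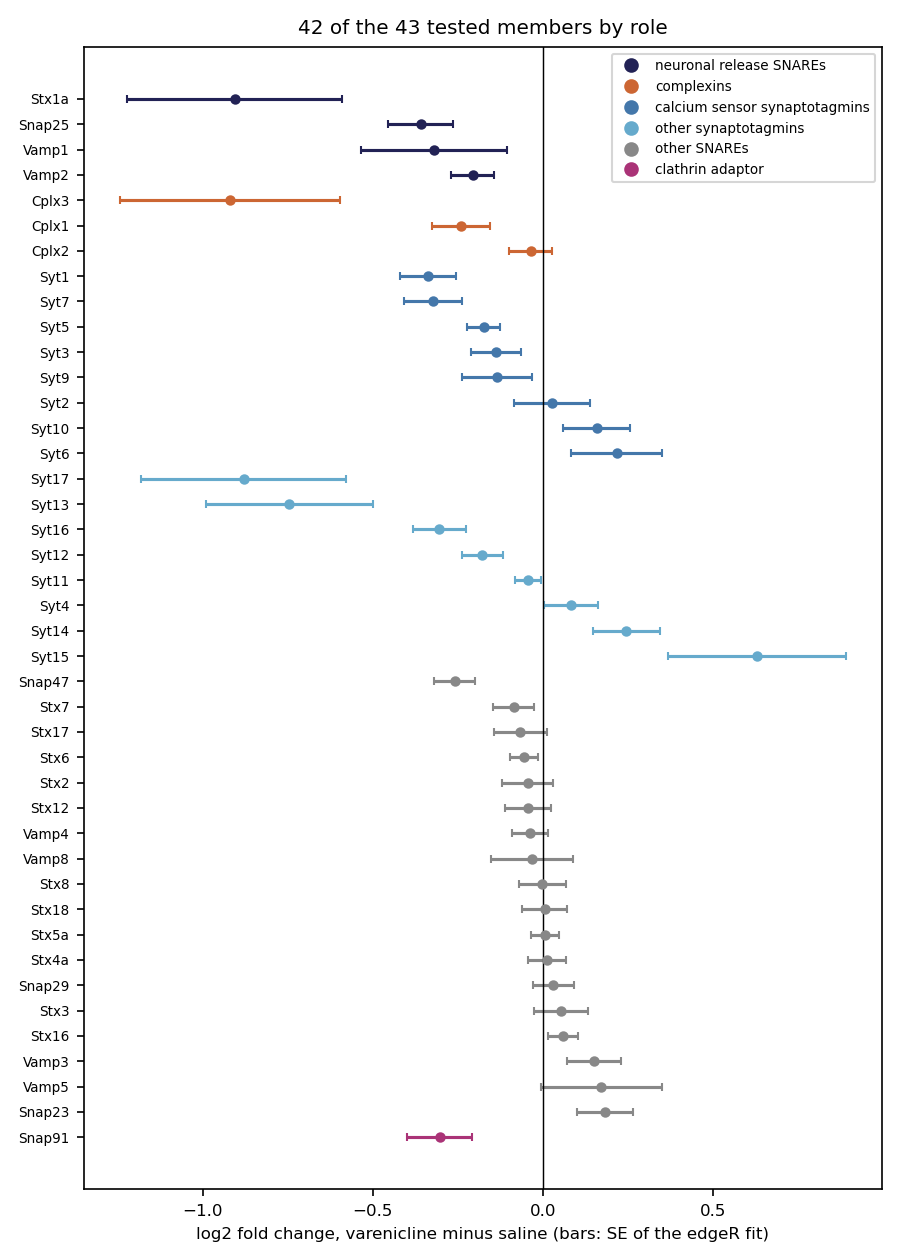
Log2 fold change (varenicline minus saline) of 42 of the 43 tested members, on the horizontal axis, ordered by role, with bars for the standard error of the edgeR fit. The 4 neuronal release SNAREs shown and all 3 tested complexins lie below 0, while 16 of the 18 tested SNAREs of other membranes lie between -0.09 and 0.17, the exceptions being Snap47 and Snap23.

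The neuronal release SNAREs were all lower on average with varenicline, with log2 fold changes from -0.91 to -0.21, none past the adjusted threshold and 4 of 5 at an unadjusted p under 0.05. Snap25 (ENSMUSG00000027273, chromosome 2, 136713450 to 136782428 on mm10) encodes the plasma membrane SNARE that carries a pair of helices. Its values ran from 1467 to 1851 CPM with saline (median 1712) and from 1108 to 1669 CPM with varenicline (median 1275). Each of the first 5 varenicline libraries was below every saline library, and varenicline 6, at 1669 CPM, was inside the saline range. The means were 1682 ± 172 and 1311 ± 211 CPM (SD, n = 6), a log2 fold change of -0.36 (SE 0.096, edgeR adjusted p = 0.138).

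Stx1a (ENSMUSG00000007207, chromosome 5, 135023572 to 135051099), the syntaxin of synaptic and endocrine release, had the widest difference of this role. With saline it ran from 95.7 to 198 CPM (median 138), and with varenicline from 39.2 to 66.5 CPM in 5 libraries and 176 CPM in varenicline 6. For Stx1a the log2 fold change reached -0.91 (SE 0.317, edgeR adjusted p = 0.184) with all libraries and -1.39 without varenicline 6 (adjusted p = 4.96e-04). That library had been singled out from earlier results of these data, and without it edgeR called 10.6% of all genes.

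Vamp2 (ENSMUSG00000020894, chromosome 11, 69088528 to 69092381), the main synaptic vesicle SNARE of forebrain, ran from 905 to 1031 CPM with saline (median 984). With varenicline it ran from 784 to 1010 CPM (median 829), and 5 of the 6 libraries lay below every saline library. On the log2 scale Vamp2 differed by -0.21 (SE 0.063, edgeR adjusted p = 0.147). Vamp1 (ENSMUSG00000030337, chromosome 6, 125215581 to 125222306), the related vesicle SNARE that prevails in spinal cord and brainstem, varied widely within both groups. It ran from 78.7 to 158 CPM with saline (median 123) and from 53.4 to 162 CPM with varenicline (median 90.3), and 3 varenicline libraries were inside the saline range. Its log2 fold change of -0.32 (SE 0.214, edgeR adjusted p = 0.464) was -0.53 without varenicline 6 and -0.20 without varenicline 1.

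**Figure D2:**
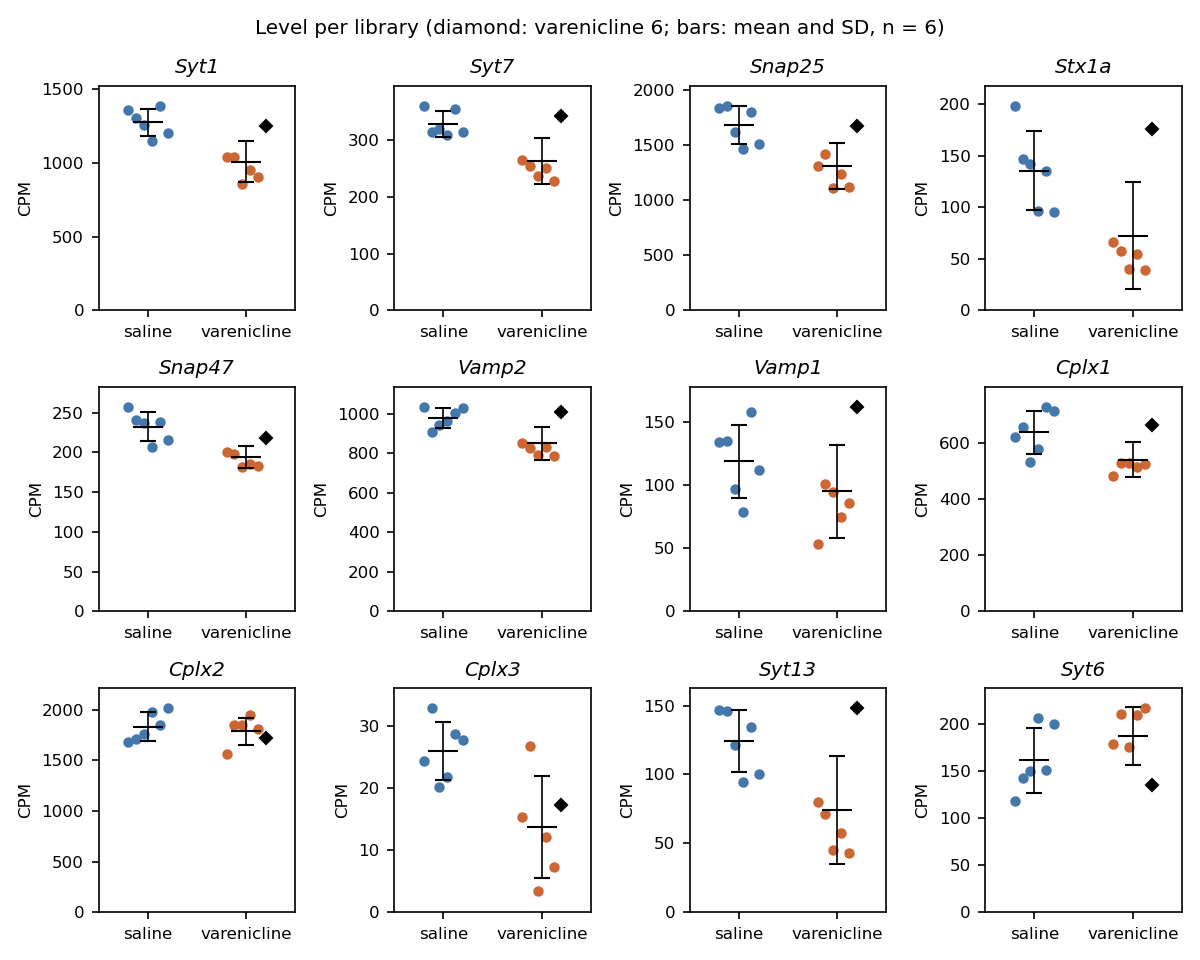
Level in CPM (vertical axes from 0) of 12 members in each of the 6 saline and 6 varenicline libraries, with the mean and SD of each group; the black diamond is varenicline 6. For Stx1a, Syt13, Snap25, Syt1 and Syt7 the diamond lies with the saline libraries and the other 5 varenicline libraries lie below all of them.

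The 3 tested complexins had log2 fold changes from -0.92 to -0.036. Cplx2 (ENSMUSG00000025867, chromosome 13, 54371349 to 54383917), the most counted member and the third per length at 368 CPM per kilobase, ran from 1681 to 2013 CPM with saline (median 1809) and from 1565 to 1944 CPM with varenicline (median 1829). The groups overlapped over most of their range, with a difference of -0.036 on the log2 scale (SE 0.063, edgeR adjusted p = 0.809). Cplx1 (ENSMUSG00000033615, chromosome 5, 108518554 to 108550027), which shares with Cplx2 the clamping and facilitating roles at central synapses, ran from 532 to 725 CPM with saline (median 638). Its varenicline values were 481 to 528 CPM in 5 libraries, all below every saline library, and 661 CPM in varenicline 6. On the log2 scale Cplx1 differed by -0.24 (SE 0.086, edgeR adjusted p = 0.187). Cplx3 (ENSMUSG00000039714, chromosome 9, 57599992 to 57606281), known from retinal ribbon synapses and as a marker of the deepest cortical layer, was scarce at 6.92 CPM per kilobase. It ran from 20.2 to 32.8 CPM with saline (median 26.0) and from 3.43 to 26.7 CPM with varenicline (median 13.7). It was lowest in varenicline 3 and 5, and varenicline 2 lay inside the saline range. Its log2 fold change of -0.92 (SE 0.322, edgeR adjusted p = 0.184) had the largest size of any member, and it was -0.71 without varenicline 3 and -1.24 without varenicline 2.

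Of the 8 synaptotagmins counted here as calcium sensors, 3 were lower at an unadjusted p under 0.05 and 0 were higher, with log2 fold changes from -0.34 to 0.22. Syt1 (ENSMUSG00000035864, chromosome 10, 108497650 to 109010975), the sensor for fast synchronous release in forebrain, ran from 1145 to 1383 CPM with saline (median 1279) and from 860 to 1251 CPM with varenicline (median 995). Varenicline 6 was its highest, inside the saline range, and the other 5 were below every saline library. The means were 1274 ± 90.9 and 1008 ± 139 CPM (SD, n = 6), a log2 fold change of -0.34 (SE 0.081, edgeR adjusted p = 0.132). Syt2 (ENSMUSG00000026452, chromosome 1, 134646681 to 134749417), the fast sensor of brainstem and of parvalbumin interneurons, had means of 41.9 ± 4.90 and 42.6 ± 7.38 CPM. The log2 fold change of Syt2 was 0.026 (SE 0.111, edgeR adjusted p = 0.927), and its sign turned in several alternatives, among them without varenicline 6 (-0.020). Syt7 (ENSMUSG00000024743, chromosome 19, 10389090 to 10453181), a slow sensor tied to asynchronous release and facilitation, ran from 309 to 360 CPM with saline (median 317). With varenicline it ran from 228 to 264 CPM in 5 libraries and was 342 CPM in varenicline 6 (log2 fold change -0.32, SE 0.085, edgeR adjusted p = 0.138).

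Syt5 (ENSMUSG00000004961, chromosome 7, 4539765 to 4546567), a sensor found on dense-core vesicles, had a small difference with a narrow spread. It ran from 118 to 131 CPM with saline (median 128) and from 99.9 to 120 CPM with varenicline (median 112). Here varenicline 1 and not varenicline 6 was the library inside the saline range. On the log2 scale Syt5 differed by -0.17 (SE 0.049, edgeR adjusted p = 0.144). Syt6 (ENSMUSG00000027849, chromosome 3, 103575282 to 103645567), a relative of Syt3 and Syt10, went the other way in its mean. It went from 162 ± 34.6 to 188 ± 31.0 CPM (SD, n = 6), a log2 fold change of 0.22 (SE 0.135, edgeR adjusted p = 0.424). Varenicline 6 was the lowest of its group at 135 CPM. Syt10, a sensor for secretion of insulin-like growth factor in olfactory bulb neurons, was scarce and had a log2 fold change of 0.16 (5.12 ± 0.295 and 5.73 ± 0.494 CPM, edgeR adjusted p = 0.426). The values for Syt3, which acts in retrieval of AMPA receptors, and Syt9 were -0.14 and -0.13 (edgeR adjusted p = 0.359 and 0.535).

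The other synaptotagmins include members whose C2 domains bind calcium weakly or not at all. Of 8 tested, 4 were lower and 2 higher at an unadjusted p under 0.05. Syt13 (ENSMUSG00000027220, chromosome 2, 92915101 to 92956051), which lacks calcium-binding residues, ran from 94.9 to 147 CPM with saline (median 128). With varenicline it ran from 42.8 to 80.0 CPM in 5 libraries and was 148 CPM in varenicline 6, above every saline library. Syt13 differed by -0.75 on the log2 scale (SE 0.245, edgeR adjusted p = 0.171), and by -1.07 without varenicline 6 (adjusted p = 9.47e-04). The second fit leaves out a library singled out from these data, and it called 10.6% of all genes. Syt17 (ENSMUSG00000058420, chromosome 7, 118381856 to 118443552), also known as B/K protein, was lower still on the log2 scale at -0.88 (SE 0.302, edgeR adjusted p = 0.180). Its values ran from 7.61 to 18.8 CPM with saline (median 8.59) and from 3.36 to 9.76 CPM with varenicline (median 4.64), with varenicline 1 and 6 inside the saline range. Syt16 and Syt12 had smaller differences, with log2 fold changes of -0.30 (SE 0.078, edgeR adjusted p = 0.138) and -0.18 (SE 0.060, edgeR adjusted p = 0.177). In Syt12, 28.99% of the exon length is shared with a gene on the opposite strand.

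On the higher side, Syt14 (ENSMUSG00000016200, chromosome 1, 192891234 to 193035775), a calcium-independent member, ran from 28.6 to 43.6 CPM with saline (median 37.1) and from 38.3 to 46.2 CPM with varenicline (median 42.4). All 6 varenicline libraries lay above the saline mean, and 3 were inside the saline range (log2 fold change 0.25, SE 0.098, edgeR adjusted p = 0.220). Syt15, the scarcest tested member with 357 counts in all, averaged 1.07 ± 0.224 and 1.64 ± 0.624 CPM (SD, n = 6; log2 fold change 0.63, SE 0.261, edgeR adjusted p = 0.242). Varenicline 2, 3, 4 and 5 were above every saline library and varenicline 1 and 6 were inside the saline range. Syt4, a calcium-independent member induced by activity, had 0.082 (edgeR adjusted p = 0.630). Syt11, the most abundant of this role per length at 200 CPM per kilobase, differed by -0.044 (SE 0.039, edgeR adjusted p = 0.589), from 927 ± 12.9 to 899 ± 22.3 CPM.

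SNAREs of endosomes, Golgi, endoplasmic reticulum and other membranes differed little. Of the 18 tested, 9 had a log2 fold change above 0 and 9 below 0, with a median of 0.0021, and 1 in each direction reached an unadjusted p under 0.05. Snap47 (ENSMUSG00000009894, chromosome 11, 59407150 to 59449956), a Snap25 relative without a membrane anchor that takes part in insertion of AMPA receptors, was the exception on the lower side and had the smallest p of all members. It ran from 207 to 257 CPM with saline (median 238) and from 181 to 218 CPM with varenicline (median 192), with varenicline 6 alone inside the saline range. Snap47 differed by -0.26 on the log2 scale (SE 0.061, edgeR adjusted p = 0.132). Snap23 (ENSMUSG00000027287, chromosome 2, 120567671 to 120600722), the Snap25 relative of glia, dendrites and non-neuronal cells, was the exception on the higher side. It ran from 14.9 to 18.4 CPM with saline (median 17.2) and from 16.5 to 22.4 CPM with varenicline (median 18.8), and 2 varenicline libraries were inside the saline range (log2 fold change 0.18, SE 0.083, edgeR adjusted p = 0.275). Vamp3, the cellubrevin of astrocytes and other constitutively secreting cells, had 0.15 (edgeR adjusted p = 0.344), and Stx16, a syntaxin of the trans-Golgi network, had 0.060 (edgeR adjusted p = 0.513). The remaining 14 lay between -0.09 and 0.17; among them are the endosomal Stx6, Stx7, Stx8, Stx12 and Vamp4, the Golgi and endoplasmic reticulum syntaxins Stx5a and Stx18, and Stx17, which serves autophagosome fusion. Of the 3 higher members at an unadjusted p under 0.05, Syt14, Syt15 and Snap23, 0 remained past that level without varenicline 4 and 1 without varenicline 2, and 5 members reached it without varenicline 6, where 11.3% of all genes were higher.

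Snap91 (ENSMUSG00000033419, chromosome 9, 86765927 to 86880449) shares the symbol but is AP180, a clathrin assembly protein that sizes retrieved synaptic vesicles and sorts Vamp2. Its values ran from 198 to 251 CPM with saline (median 228) and from 151 to 196 CPM in 5 varenicline libraries, all below every saline library, with 234 CPM in varenicline 6. Snap91 differed by -0.30 on the log2 scale (SE 0.095, edgeR adjusted p = 0.154).

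The 5 members with too few counts to test were Stx11, a syntaxin of cytotoxic lymphocytes, with 30 counts over all 12 libraries, Cplx4, a complexin of retinal photoreceptors, with 15, Syt8 with 8, Stx19 with 3 and Vamp7 with 0. Vamp7 is an endosomal and lysosomal SNARE. The count table lists it on an X chromosome scaffold without a fixed position. Each of the 4 genes listed on that scaffold had 0 counts in every library. The 0 of Vamp7 is therefore not a measured absence in this tissue.

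In 11 of the 43 members varenicline 1 to 5 all lay below every saline library, which was so for 5.31% of all genes; all 11 are among the 15 that were lower at an unadjusted p under 0.05. The other 4 of the 15, Syt5, Syt12, Syt17 and Cplx3, each had 1 of these 5 libraries inside the saline range. Over the 15 lower members, varenicline 6 was the highest of its group in 12, was inside the saline range in 11 and was above the saline mean in 7. Among the other 5 varenicline libraries, only varenicline 2 was above the saline mean, and for 1 member, Cplx3. Varenicline 6 had been singled out from earlier results of these data. Without varenicline 6, edgeR called 13 of the 43 members at an adjusted p of 0.05, all lower, where it called 7.58% of all genes lower and 10.6% in all. The 13 were all among these 15, with Syt12 (adjusted p = 0.0663) and Cplx3 (adjusted p = 0.0706) left over.

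**Figure D3:**
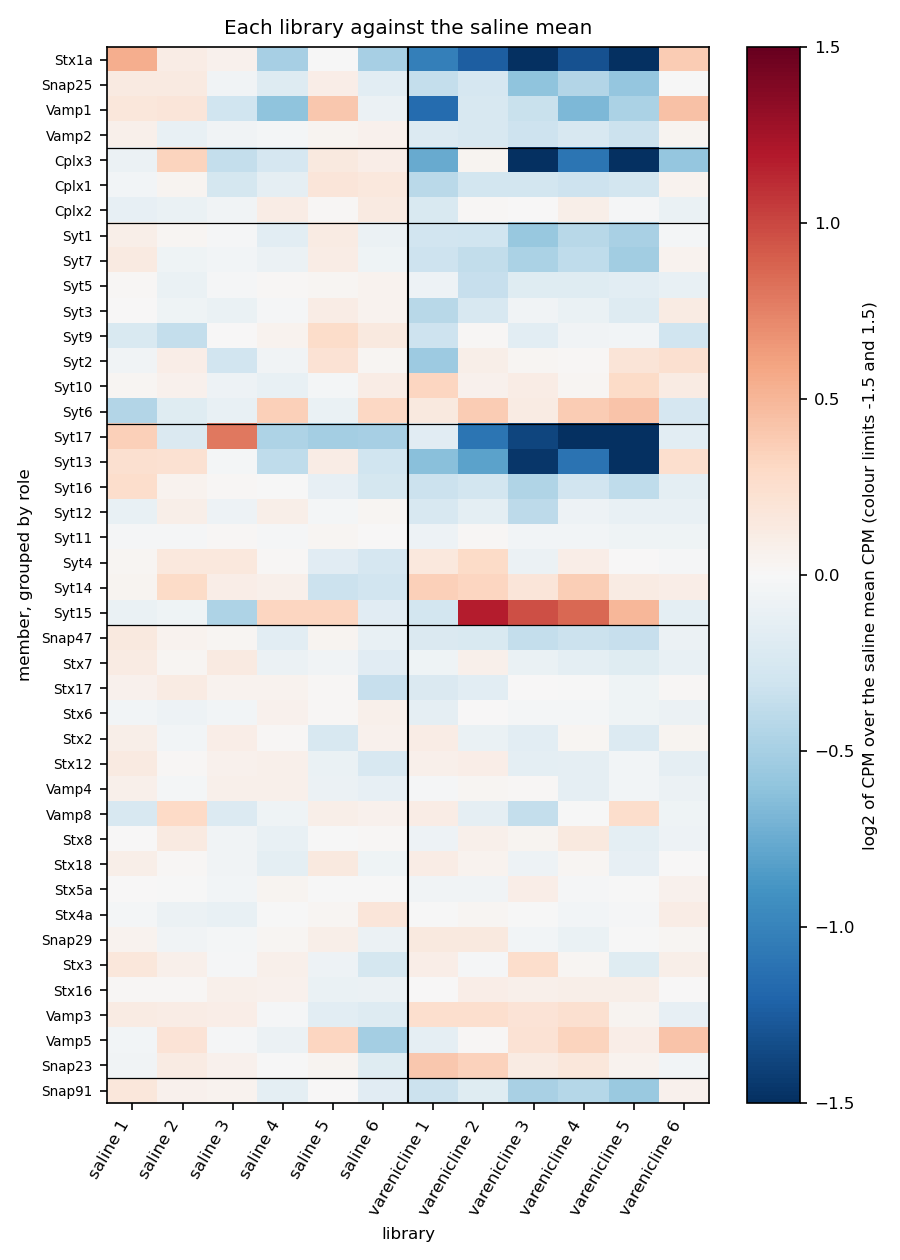
Each of 42 tested members (rows, grouped by role with lines between roles) in each library (columns), coloured by the log2 of its CPM over the saline mean CPM, with colour limits at -1.5 and 1.5. Varenicline 1 to 5 are blue across Stx1a, Snap25, Syt1, Syt7, Syt13 and Snap91, varenicline 6 is not, and most SNAREs of other membranes stay near white in all 12 libraries.

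Markers of cortical excitatory neurons moved with these members. All 14 genes of that list, which holds no member of the families, were detected and had lower means with varenicline, and their summed level ran from 844 to 1457 CPM with saline and from 247 to 1282 CPM with varenicline. The score of the list, its mean log2 CPM, was 5.17 ± 0.318 with saline and 3.90 ± 1.01 with varenicline (SD, n = 6), with an exact permutation p of 0.0152 that was 0.0606 after adjustment for 8 marker lists. In varenicline 6 the score was 5.47, inside the saline range of 4.78 to 5.58, and in the other 5 it lay between 2.59 and 4.30. The oligodendrocyte score was 9.10 ± 0.119 and 9.27 ± 0.142 (adjusted p = 0.143 over the same lists, exact permutation), and the astrocyte score 8.15 ± 0.0797 and 8.26 ± 0.0719 (adjusted p = 0.104, exact permutation). All 8 oligodendrocyte and all 6 astrocyte genes were higher with varenicline. The projection neuron score was 8.75 ± 0.231 and 8.97 ± 0.254 (adjusted p = 0.222, exact permutation), with all 14 genes higher. Varenicline 6 was the lowest of its group on that score at 8.52, where the other 5 lay between 8.85 and 9.22. Septal and pallidal markers had scores of 2.52 ± 0.179 and 3.06 ± 0.545 (adjusted p = 0.0606, exact permutation), with 9 genes higher and 1 lower. For the interneuron, microglia and choroid plexus lists the adjusted p was 0.991.

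Adding the cortical score to the edgeR model left 1 member lower and 0 higher at an unadjusted p under 0.05, where 1.86% and 2.94% of all genes were. None passed the adjusted threshold, which 0.0794% of all genes did. The 1 was Syt5, whose log2 fold change was -0.16 with the covariate and -0.17 without it. All 15 lower members kept a negative sign, while their median went from -0.30 to -0.11. The change was largest for Stx1a, from -0.91 to -0.053, for Syt13, from -0.75 to -0.025, for Cplx3, from -0.92 to -0.14, and for Syt17, from -0.88 to -0.24. Snap25 went from -0.36 to -0.071 and Snap91 from -0.30 to -0.026. In varenicline 1 to 5 the score lay at 2.59 to 4.30, below the lowest saline score of 4.78. Score and treatment are therefore only partly separated in this fit. With the projection neuron score as a covariate 17 members were lower and 1 higher at an unadjusted p under 0.05, where 6.31% and 4.74% of all genes were. The 17 were the same 15, with a median of -0.21, and Syt9 (-0.24) and Cplx2 (-0.11). With the oligodendrocyte score 8 members were lower and 1 higher, where 4.47% and 4.23% of all genes were. Among the higher members, Syt15 went from 0.63 to 0.23 with the cortical covariate, while Syt14 had 0.25 without it and 0.27 with it, and Snap23 had 0.18 and 0.20.

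When the cortical covariate was used on the 11 libraries without varenicline 6, 6 members were lower and 4 higher at an unadjusted p under 0.05, where 5.04% and 5.15% of all genes were, and none passed the adjusted threshold. The lower ones included Syt7, Syt5, Stx1a, Cplx1 and Syt3, and the higher ones Syt14, Snap23, Vamp3 and Syt4. These names were picked out after their values were seen. In that fit the score and the treatment are close to each other, since the varenicline scores then all lie below the saline scores.

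**Figure D4:**
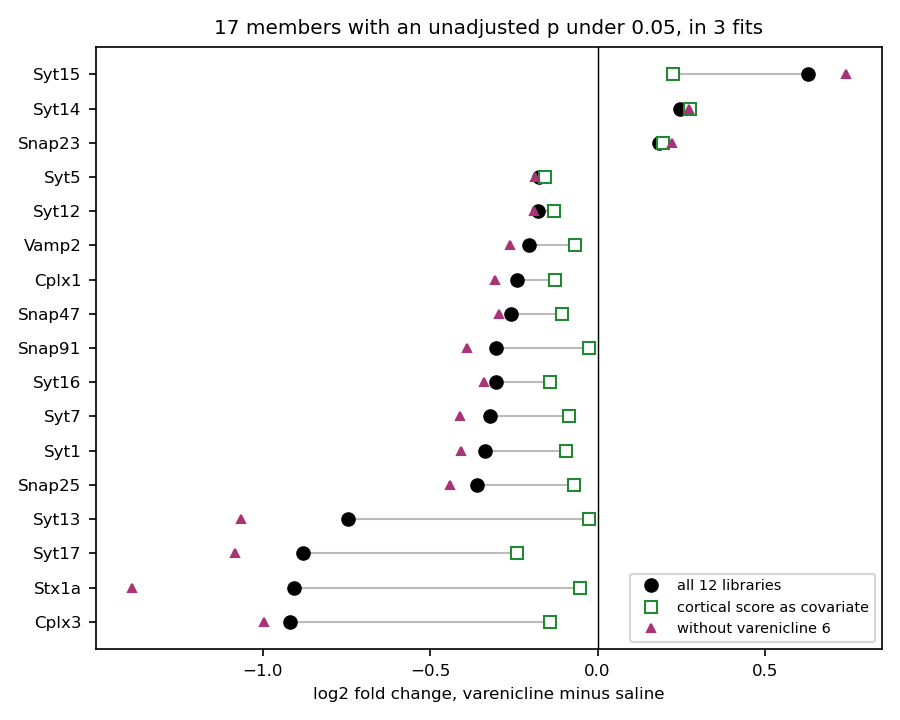
Log2 fold change (horizontal axis) of 17 members with an unadjusted p under 0.05 in 3 edgeR fits: all 12 libraries (black circles), with the cortical score as a covariate (green squares) and without varenicline 6 (purple triangles). Stx1a, Syt13, Syt17 and Cplx3 shift most between fits, and Syt5, Syt14 and Snap23 hardly shift.

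Some members followed the cortical score among saline mice alone, where no drug was given. Over the 6 saline libraries Syt17 varied most, 2.47-fold. Stx1a varied 2.07-fold, highest in saline 1 and lowest in saline 6, and Vamp1 varied 2.01-fold, whereas Syt11 varied 1.04-fold. Pearson's r with the score was 0.436 for Syt17 (exact permutation p = 0.379, adjusted p = 0.657) and 0.749 for Vamp1 (exact permutation p = 0.0986, adjusted p = 0.349). Of 43 relations computed between log2 CPM and the score, 3 passed an adjusted p of 0.05 by Pearson's r and 0 by Spearman's rho (exact permutation of 6 libraries). For Syt13 r was 0.976 (exact permutation p = 0.00139, adjusted p = 0.0299) and rho was 1 (exact permutation p = 0.00278, adjusted p = 0.0597), with r of 0.866 without the 2 libraries farthest from the median score. For Snap47 r was 0.982 (exact permutation p = 0.00139, adjusted p = 0.0299) and rho was 1 (exact permutation p = 0.00278, adjusted p = 0.0597), with r of 0.926 without those 2. Syt6 ran the other way, with r of -0.984 (exact permutation p = 0.00278, adjusted p = 0.0398) and rho of -0.943 (exact permutation p = 0.0167, adjusted p = 0.179), with r of -0.906 without those 2.

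Stx1a and Snap25 had r of 0.968 and 0.956 in the saline group (exact permutation p = 0.00833 and 0.00556, adjusted p = 0.0597 for both), with rho of 0.886 and 0.943 (exact permutation p = 0.0333 and 0.0167, adjusted p = 0.205 and 0.179). Without the 2 libraries farthest from the median score these were 0.857 and 0.785. For Cplx1, Vamp2 and Syt5 the saline-only r was 0.0762, 0.0120 and -0.324 (exact permutation p from 0.583 to 0.969; adjusted p from 0.836 to 0.981) and rho was 0.200, 0.143 and -0.200 (exact permutation p from 0.714 to 0.803; adjusted p from 0.903 to 0.933). Without the 2 farthest libraries their r was 0.365, 0.587 and 0.267. With 6 libraries such values are loose, and a relation of these 3 to the score is not shown to be absent. The part of the cortical markers in the differences between the groups was not tested.

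**Figure D5:**
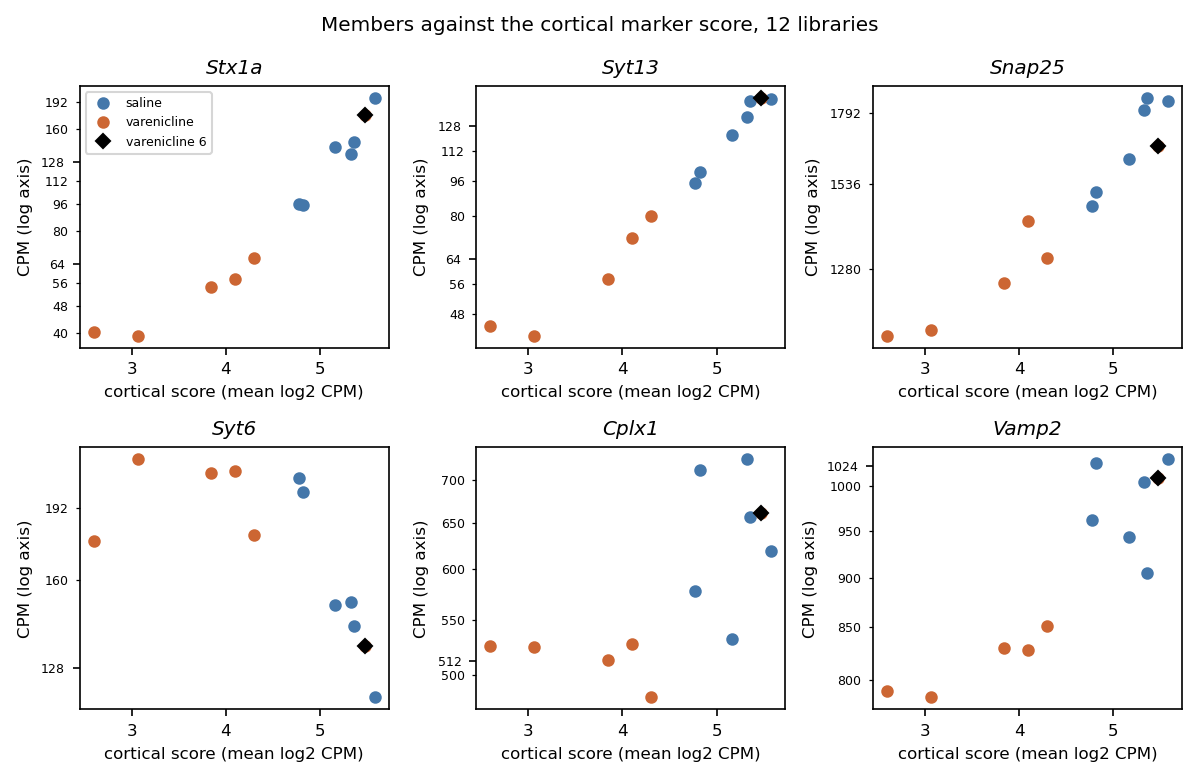
CPM on a log axis against the cortical score (mean log2 CPM of 14 markers) for 6 members in the 12 libraries, saline in blue, varenicline in orange, varenicline 6 as a black diamond. Stx1a, Syt13 and Snap25 rise along the score in both groups. Among the saline libraries Syt6 falls along the score, while Cplx1 and Vamp2 are scattered.

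Related genes were compared by the log2 ratio of their levels in each library for 5 pairs, 4 of which are given. The log2 ratio of Snap25 to Snap23 went from 6.62 ± 0.130 to 6.07 ± 0.293, a difference of -0.55 (exact permutation p = 0.0108, adjusted p = 0.0541 over 5 pairs), and -0.66 without varenicline 6 (exact permutation adjusted p = 0.0216). Cplx1 to Cplx2 differed by -0.20 (exact permutation adjusted p = 0.119), and by -0.28 without varenicline 6 (exact permutation adjusted p = 0.0289). The ratio of Syt1 to Syt2 differed by -0.36 (exact permutation adjusted p = 0.0758, 0.0812 without varenicline 6) and that of Vamp1 to Vamp2 by -0.16 (exact permutation adjusted p = 0.532). Of these 4 ratios 0 passed with all 12 libraries. Without varenicline 6, a library singled out from earlier results of these data, 2 passed. These scales set each gene against its partner within a library and need no scaling between libraries.

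Of 72 partners of the fusion machinery outside these families, 71 were tested, and none passed the adjusted threshold in edgeR. At an unadjusted p under 0.05, 32 were lower and 3 higher, beside 9.64% and 7.27% of all genes, with a median log2 fold change of -0.11. DESeq2 called 10, and it called 3.33% of all the genes to which it gave an adjusted p. Among the 27 priming and tethering genes 13 were lower and 2 higher at an unadjusted p under 0.05 in edgeR. They included Pclo, the active zone scaffold piccolo (318 ± 8.06 and 269 ± 19.8 CPM, SD, n = 6; log2 fold change -0.24, SE 0.051, edgeR adjusted p = 0.132). Of 12 vesicle proteins 9 were lower, among them Syngr1, a vesicle membrane protein (-0.36, SE 0.0875, edgeR adjusted p = 0.132). The ATPase and adaptor genes that take SNARE bundles apart, Nsf and the Nap genes, were lower in 3 of 4. Of 7 Rab3 and effector genes 4 were lower, of 9 tested C2 proteins 2 were lower and 1 higher, and of 12 SNAREs of other membranes 1 was lower. On the higher side Unc13c, a Munc13 priming factor, had 0.33 (SE 0.104, edgeR adjusted p = 0.154). Stxbp3 had 0.19 (SE 0.068, edgeR adjusted p = 0.184) and Sytl5 had 0.18 (SE 0.070, edgeR adjusted p = 0.210). With the cortical score as a covariate 2 of the 71 were lower, Pclo among them, and 1 higher (Sytl1) at an unadjusted p under 0.05. Sytl1 had only 128 counts over all libraries (0.452 ± 0.152 and 0.590 ± 0.522 CPM, SD, n = 6). Its log2 fold change was 1.43 with the covariate and 0.30 without it (edgeR unadjusted p = 0.555). Of all genes 1.86% were lower and 2.94% higher at that level, and the median of the 71 was -0.037.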

How the data were processed

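RNA of bilateral striatum was sequenced as single reads of 150 nt from Illumina TruSeq libraries, per the labels' protocols. The submitters' processing notes name the build mm10, the aligner TopHat2 and the counter featureCounts, beside Trimmomatic, FastQC, Cuffdiff, Cuffnorm and DESeq2. They give no version, annotation or strand setting. The authors deposited whole-number counts per gene without normalization, which gave the main values. The FPKM values and the scaled-count signal, by its file name from Cuffnorm, that the authors deposited served as alternatives only. Exon lengths and positions are those of the deposited count table per the file headers.

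Genes with at least 10 counts in 6 or more of the 12 libraries, 15111 in number, were scaled by TMM and tested, varenicline against saline, with edgeR 4.0.16 (quasi-likelihood F test, R 4.3.3). Benjamini-Hochberg adjustment ran over all of them, with a threshold of 0.05. CPM values use the TMM library sizes; log2 CPM adds a prior count of 2. Standard errors are the log2 fold change divided by the square root of F. Marker scores and ratios were compared by two-sided exact permutation tests over all 924 assignments, whose smallest p is 0.00216. Library totals ran from 13340420 to 27917715 counts, where 3 counts equal 0.225 to 0.107 CPM, a limit set by counting error alone. All 66 library pairs differed beyond sampling noise (lowest chi-square per degree of freedom 5.90). Alternatives were other size factors, filters and tools (DESeq2 1.42.0, limma 3.58.1), marker scores as covariates, and each library left out. The fits were checked on simulated counts. Limma ran on log2 of FPKM plus 1 or 0.1 and of the Cuffnorm values plus 1, a scale that understates changes of low genes.

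The members, lists and tests were chosen with earlier results of these data known. Named genes are 11 members of the release machinery, the 8 tested members per direction with the smallest unadjusted p, further members by role, those below the filter, and up to 4 per direction of the pathway list. The ratios of related genes and the relations within the saline group were added after values had been seen. Some genes of these lists are counted but not reported here by name.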

Additional observations from a re-analysis of the deposited data

Results flagged for a closer look

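Over the members and the 8 marker scores, 102 sets of 6 values were examined, and 8 held a library far from the other 5 of its group, where chance gives 5.1 at 1 in 20. The sets share the same 12 libraries and are not independent, so the 8 cannot be weighed against the 5.1. Of the 8, 5 concerned varenicline 6, which had been singled out from earlier results of these data. In log2 CPM that library was at 9.98 for Vamp2 (others of its group 9.62 to 9.73), at 8.42 for Syt7 (7.84 to 8.05), at 9.37 for Cplx1 (8.91 to 9.04) and at 7.46 for Stx1a (5.30 to 6.06), each time the highest. Its oligodendrocyte score of 8.99 was the lowest of the group, where the others lay between 9.29 and 9.39. Syt2 was lowest in varenicline 1 at 4.85, apart from the others at 5.41 to 5.64. Stx17 was lowest in saline 6 at 4.44, where the other saline libraries lay between 4.804 and 4.91. Saline 6 also had the highest oligodendrocyte score of its group, 9.33 against 9.02 to 9.10. The cause of these values was not tested.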

How the results depend on the processing

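No paired analysis was possible because every title carries the same replicate number. In edgeR, 0 members, 0 genes of the whole table and 0 of the pathway list were called with all 12 libraries. DESeq2 called 7, 406 and 10, and limma-voom with sample weights called 16, 2102 and 39, with 7 pathway genes higher at an unadjusted p under 0.05. With the cortical score as a covariate 12 genes of the whole table were called. At an unadjusted p under 0.05, 1 member was lower and 0 higher, and 2 pathway genes were lower and 1 higher. Of all genes 1.86% were lower and 2.94% higher at that level. The projection neuron score left 1 member higher, and 21 pathway genes lower and 1 higher, beside 6.31% and 4.74% of all genes. With the oligodendrocyte score 1 gene was called, and 8 members were lower and 1 higher. In that fit 12 pathway genes were lower and 0 higher, beside 4.47% and 4.23% of all genes. The cortical score without varenicline 6 left 6 members and 9 pathway genes lower, beside 5.04% of all genes. Leaving out each library in turn, members called ran from 0 to 13, all genes called from 0 to 1609 and pathway genes called from 0 to 30, each highest without varenicline 6. All genes called were 4 without varenicline 2. Members higher at an unadjusted p under 0.05 ran from 0 (without varenicline 4) to 5, and pathway genes higher from 2 (without varenicline 2) to 6 (without saline 6 or varenicline 6). Of 26 members followed through 27 alternatives, 5 changed sign in at least 1. Cplx2 was at 0.036 in limma-voom, Vamp1 at 0.033 and Syt6 at -0.082 with the cortical score, Syt6 also at -0.027 with the projection neuron score and -0.037 with the oligodendrocyte score, and Cplx3 at 0.62 with the cortical score without varenicline 6. Syt2 was at -4.4e-05 on log2 FPKM plus 0.1, at -0.0044 on log2 Cuffnorm plus 1 and at -0.24 with the cortical score without varenicline 6, and ran from -0.021 to 0.11 over the libraries left out. The cause was not tested. The lowest total counts among tested members were 357 for Syt15 and 444 for Vamp5, and the 5 members below the filter had 30 counts or fewer.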
